A study of Mus musculus with 45 samples.

Results

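The 9 genes described here mark astrocytes, the glial cells that grow among the neurons of a dissociated hippocampal culture. They were chosen by symbol alone: Gfap, the intermediate filament protein of astrocytes, Aqp4, the water channel of astrocytic endfeet, Aldh1l1, a folate-metabolizing dehydrogenase, Gja1 and Gjb6, the connexins of astrocytic gap junctions, S100b, a calcium-binding protein, Sox9, a transcription factor of glial development, Aldoc, the brain form of the glycolytic enzyme aldolase, and Fabp7, a fatty acid-binding protein of radial glia and young astrocytes. All 9 were found among the 54532 gene identifiers of the count table, and 8 of them had at least 55 reads in each of the 45 libraries. In these data 7 of them changed together in 1 condition, the long exposure to NMDA, whereas Sox9 rose with induced action potential (AP) firing, was lower when firing was blocked and was high again under the long NMDA exposure. Gjb6 was close to undetected.

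Astrocytes take up the glutamate that neurons release, buffer potassium and couple to each other through gap junctions. They divide in culture, so that neuronal cultures are commonly given an antimitotic agent that limits their number but does not remove them. The level of an astrocyte gene in RNA from a whole culture is its share of all RNA. In such bulk RNA, fewer cells of a type and less RNA per cell cannot be told apart, which holds for all levels given here.

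Poly-A RNA was sequenced from primary hippocampal neurons of newborn (P0) C57BL/6N mice, and reads were counted per gene. All cultures, controls included, were grown in B27 and 1% rat serum and received AraC on day in vitro (DIV) 3. By the labels they were treated on DIV 10 or 11, and the RNA-seq methods of the study give DIV 11. The labels number 5 culture preparations (1, 3, 6, 7 and 8), and each of them gave 1 library to each of 9 conditions, so that n = 5 throughout. The control was untreated. The GABA receptor blocker bicuculline (Bic, 50 µM), which drives AP firing, was applied for 0.5, 1 or 2 h and stayed on in all later treatments. In the short protocol (SP), tetrodotoxin (TTX, 1 µM), which blocks AP firing, was added after 0.5 h for a further 0.5 h, either alone (SP TTX) or with 30 µM NMDA, the agonist of NMDA receptors (SP TTX/NMDA). The long protocol (LP) used 1 h for each step, and the additions were TTX (LP TTX), TTX and NMDA (LP TTX/NMDA) or 50 µM TBOA, which blocks glutamate uptake and so causes glutamate spillover (LP TBOA). TTX against Bic of the same total duration gives the passive effect, TTX/NMDA against TTX the active effect, TTX/NMDA against that Bic the total effect, and TBOA against 2 h Bic the effect of spillover. Comparisons that share a condition, such as the passive and the active effect, share its libraries.

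Gene counts summed to between 11316580 and 81129276 per library. No libraries were identical, and those of 1 condition correlated with r of at least 0.985. The neuronal label held against the markers, since 18 neuronal genes summed to 14536 ± 744 CPM (the read count scaled to library size; SD, n = 5) in the control, against 721 ± 228 CPM for the 9 astrocyte genes and 10.6 ± 1.80 CPM for 9 microglial genes. A further 24 astrocyte genes summed to 3368 ± 509 CPM. These sums depend on the genes in each list and give no share of cells. In the SP TTX library of preparation 6, Gfap and several genes of reactive astrocytes stood above the other 4 libraries, and in the LP TBOA library of preparation 6 the same held for 6 of the 8 measured members. The comparisons that hold these libraries are given with and without them where a member's value depended on them.

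The promoters of members that moved together are shown for 3 of the 7 genes, namely Fabp7 and S100b, whose groups separated completely under NMDA, and Gja1, whose window held matches to other motifs than theirs. Of the 9 members, 7 (Gfap, Aldh1l1, Gja1, Gjb6, S100b, Aldoc and Fabp7) had 1 or 2 start sites in the RefSeq promoter table (GRCm38.p6), 8 windows in all, and Aqp4 and Sox9 had no window. The windows of Gfap and Aldh1l1 and 1 of the 2 Aldoc windows lie wholly inside the gene model. The bases before the gene models of Gfap and Aldh1l1 were therefore not searched. The 250 bases before each start site were searched on both strands for TTGGC (the NFI family, which acts in astrocyte differentiation), TTCNNNGAA (STAT), TGANTCA (AP-1), ACAANG (SOX) and TGACG (CRE), and capitals mark any match. The windows lie on the plus strand of chromosome 10, at chr10:57784673-57784880 for Fabp7 (cut where the gene model begins), chr10:76253586-76253835 for S100b and chr10:56377050-56377299 for Gja1.
Fabp7: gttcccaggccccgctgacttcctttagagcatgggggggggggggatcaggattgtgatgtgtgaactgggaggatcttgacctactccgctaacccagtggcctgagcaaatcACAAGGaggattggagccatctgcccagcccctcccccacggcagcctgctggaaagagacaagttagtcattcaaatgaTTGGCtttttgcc
S100b: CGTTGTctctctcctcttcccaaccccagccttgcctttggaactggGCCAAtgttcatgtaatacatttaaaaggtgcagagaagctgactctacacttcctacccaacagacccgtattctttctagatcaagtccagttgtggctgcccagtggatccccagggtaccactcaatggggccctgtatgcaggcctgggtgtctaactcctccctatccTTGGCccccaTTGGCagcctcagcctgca
Gja1: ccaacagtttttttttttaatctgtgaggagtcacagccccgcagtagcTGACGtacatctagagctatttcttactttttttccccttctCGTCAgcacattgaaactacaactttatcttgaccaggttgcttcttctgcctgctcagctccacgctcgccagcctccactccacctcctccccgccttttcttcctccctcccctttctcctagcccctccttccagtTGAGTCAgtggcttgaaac
The TTGGC motif matched at 55 bases before the Fabp7 start and at 203, 29 and 19 bases before the S100b start. With 1 Aldoc window, 3 of the 8 windows held it, against 41.5% of all 32851 windows of this length. The AP-1 motif was in 1 of the 8 windows, 19 bases before the Gja1 start, against 6.75% of all windows, and TGACG was in that window alone, against 17.8%. ACAANG was in 2 windows (Fabp7 and S100b) against 36.3%, and TTCNNNGAA in 1 window, that of Aldoc inside its gene model, against 7.02%. These matches describe the letters of the windows and were not tested against the levels. No motif was found in the windows of all 7 genes searched.

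Per kilobase of exon, Fabp7 was the most abundant member, with a mean over the 45 libraries of 236 ± 75.4 CPM per kb, followed by Gfap at 66.1 ± 26.8 and Aldoc at 39.2 ± 14.5 CPM per kb. Sox9 reached 10.6 ± 5.64 CPM per kb, Aqp4 7.80 ± 2.89, Aldh1l1 7.31 ± 2.31, S100b 4.14 ± 1.27 and Gja1 3.63 ± 1.33 CPM per kb. Gjb6 (chromosome 14, 57123303 to 57133611) collected 91 reads in all 45 libraries together. It had 0 reads in 7 libraries, each of which allows up to 3 reads, and more than 3 reads in only 5, with 9 as the highest count. These cultures thus held 1 of the 2 astrocytic connexins at a measurable level, and for Gjb6 no fold change is given in any comparison.

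**Figure D1:**
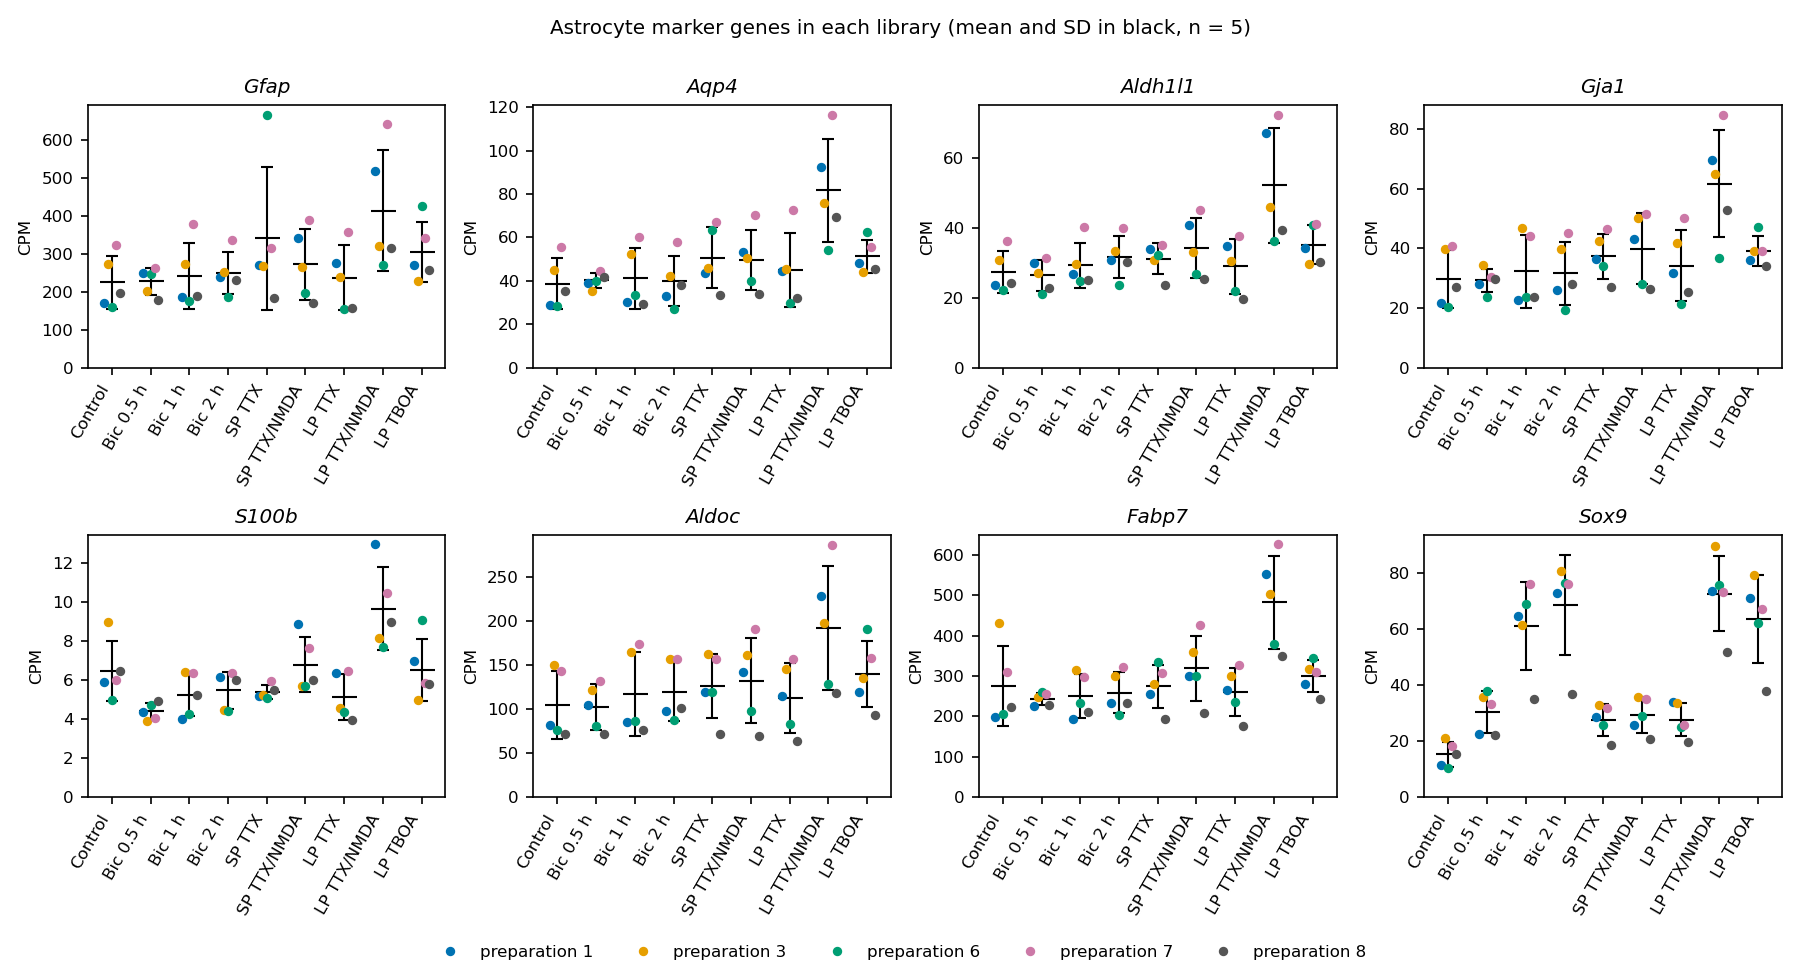
CPM (y axis) of 8 members in each of the 9 conditions (x axis), with each of the 5 libraries as a point coloured by culture preparation, and the mean ± SD of the condition in black. The LP TTX/NMDA mean is the highest for every gene drawn, but Sox9 was nearly as high after 1 and 2 h Bic and in LP TBOA.

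Sox9 (chromosome 11, 112782224 to 112787760) was the 1 member called higher with Bic when preparations were not paired. In preparations 1, 3, 6, 7 and 8 its control level was 11.7, 21.2, 10.4, 18.2 and 15.5 CPM. After 0.5 h Bic it was 22.4, 35.8, 37.9, 33.4 and 22.3 CPM, after 1 h 64.7, 61.2, 68.9, 76.0 and 34.9 CPM, and after 2 h 72.6, 80.8, 76.2, 75.9 and 36.9 CPM. Every library with Bic alone was above every control library, and preparation 8 was the lowest at 1 and 2 h. The mean rose from 15.4 ± 4.47 CPM in the control to 30.4 ± 7.46, 61.1 ± 15.7 and 68.5 ± 17.9 CPM (SD, n = 5 each), which was a log2 fold change of 0.97 ± 0.13 (SE; adjusted p = 1.14e-06), 1.97 ± 0.15 (adjusted p = 1.73e-13) and 2.13 ± 0.16 (adjusted p = 5.33e-13). At each time Sox9 was the only member called in this unpaired fit, 1 of 9. Of all genes tested, 0.289% were called higher after 0.5 h, 0.965% after 1 h and 4.24% after 2 h. Within preparations the rise after 2 h ranged from 2.38-fold to 7.33-fold.

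Sox9 was lower with TTX than with uninterrupted Bic. In SP TTX it was 28.6, 32.9, 25.8, 31.9 and 18.5 CPM in preparations 1, 3, 6, 7 and 8, and every library was below every library of 1 h Bic. The passive effect was a log2 fold change of -1.17 ± 0.13 in the SP (SE; adjusted p = 4.28e-08) and of -1.32 ± 0.14 in the LP (adjusted p = 4.49e-08). It was again the only member called in each, where 0.252% of genes were called lower in the SP and 1.62% in the LP. In LP TTX it was 33.9, 33.5, 25.1, 25.9 and 19.8 CPM, again without overlap with 2 h Bic. The level left after TTX in the SP was 27.5 ± 5.77 CPM, beside 30.4 ± 7.46 CPM after 0.5 h Bic, when TTX was added. In the LP it was 27.7 ± 5.99 CPM, beside 61.1 ± 15.7 CPM after 1 h Bic, when TTX was added there.

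With NMDA added to TTX, Sox9 differed between the protocols. In SP TTX/NMDA it was 25.8, 35.8, 28.96, 35.1 and 20.9 CPM, an active effect of 0.09 ± 0.12 on the log2 scale (SE; adjusted p = 0.722). The total effect against 1 h Bic was -1.07 ± 0.13 (adjusted p = 1.76e-07), lower in 5 of 5 preparations, although the 1 h Bic library of preparation 8 lay within the range of SP TTX/NMDA. In LP TTX/NMDA it was 73.3, 89.4, 75.6, 73.0 and 51.7 CPM, above every library of LP TTX. Here the active effect was 1.39 ± 0.12 (adjusted p = 3.28e-10), a 2.61-fold rise that was seen in 5 of 5 preparations. The difference between the active effects of the protocols was 1.31 ± 0.20 on the log2 scale (adjusted p = 3.76e-05, interaction over 20 libraries), and Sox9 was 1 of the 0.722% of genes called higher in the LP by this test. Against 2 h Bic the LP TTX/NMDA level of Sox9 did not pass the test, with a log2 fold change of 0.07 ± 0.13 (adjusted p = 0.749).

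Ordered by mean, the Sox9 levels were 72.6 ± 13.5 CPM in LP TTX/NMDA, 68.5 ± 17.9 in 2 h Bic, 63.4 ± 15.6 in LP TBOA, 61.1 ± 15.7 in 1 h Bic, 30.4 ± 7.46 in 0.5 h Bic, 29.3 ± 6.30 in SP TTX/NMDA, 27.7 ± 5.99 in LP TTX, 27.5 ± 5.77 in SP TTX and 15.4 ± 4.47 CPM in the control. Only 2 of the 8 gaps between neighbours were larger than the SDs of the pair added up, those between 1 and 0.5 h Bic and between SP TTX and the control. The libraries of both pairs still overlapped, since the SP TTX library of preparation 8 (18.5 CPM) was below the control of preparation 3 (21.2 CPM), and the 1 h Bic library of preparation 8 (34.9 CPM) was within the range of 0.5 h Bic. For each of the other 7 members, 0 of the 8 gaps between neighbours exceeded the added SDs.

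The other 7 well-measured members, Gfap, Aqp4, Aldh1l1, Gja1, S100b, Aldoc and Fabp7, did not pass the test after Bic at any time. After 2 h their log2 fold changes lay between -0.25 and 0.18, with adjusted p between 0.398 and 0.988. Gfap (chromosome 11, 102887336 to 102900912) gave 170, 274, 160, 322 and 198 CPM in the control and 238, 253, 187, 337 and 232 CPM after 2 h Bic in preparations 1, 3, 6, 7 and 8, so that the spread between preparations was larger than any shift between the groups. In the fit with preparations paired, Aldh1l1 rose by 0.19 (adjusted p = 0.0346) and Aldoc by 0.22 (adjusted p = 0.0228) on the log2 scale after 2 h, each in 5 of 5 preparations, which made 3 members called where 14.4% of genes were called higher. Scaling by total counts, in place of trimmed means, would shift all values of this comparison by -0.10. S100b moved the other way after 0.5 h Bic. Its control level was 5.92, 9.02, 4.97, 6.00 and 6.45 CPM and its level after 0.5 h was 4.399, 3.91, 4.72, 4.09 and 4.96 CPM in preparations 1, 3, 6, 7 and 8. The groups did not overlap, but the log2 fold change of -0.56 ± 0.15 (SE) had an adjusted p of 0.162, where 0% of all genes tested were called lower. Without preparation 6 it passed the test, at -0.67 (adjusted p = 0.0218).

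None of the 7 passed the test in the passive effect of either protocol or in the SP active effect. In the SP passive effect their log2 fold changes ranged from 0.02 to 0.49, and the upper end was Gfap. Gfap was 272, 267, 665, 314 and 185 CPM in SP TTX in preparations 1, 3, 6, 7 and 8, against 187, 274, 176, 379 and 190 CPM in 1 h Bic. The library of preparation 6 alone stood out, and without it the Gfap value was 0.10 (adjusted p = 0.886) in place of 0.49 (adjusted p = 0.879). In the same library Vim, an intermediate filament gene, was at 328 CPM against at most 198 CPM in the other 4, Timp1 at 1.27 against at most 0.491, Lcn2 at 0.856 against at most 0.221, and Serpina3n at 39.5 against at most 28.2 CPM, all genes that reactive astrocytes raise. The library stood apart in other genes too, with Plin2, of lipid droplets, at 21.04 against at most 8.05 CPM, Acta2, of smooth muscle actin, at 8.26 against at most 3.64 CPM, and Reln, an extracellular matrix gene of neurons, at 215 against at least 361 CPM. Their part in the Gfap value was not tested. Leaving out preparation 3, 7 or 8 from both conditions brought Gfap past the threshold, with log2 fold changes from 0.59 to 0.75, and each of these fits kept the library of preparation 6. Aqp4 also passed without preparation 3 (0.43) or 8 (0.32).

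The SP active effect called 0 of the 9 members, where 0.956% of genes were called higher and 3.32% lower. Of the 9, 1 had an unadjusted p under 0.05, S100b, which was higher in 5 of 5 preparations with a log2 fold change of 0.33 ± 0.13 (SE; adjusted p = 0.178). The DESeq2 fit likewise called 0 members. Among the 8 measured members, Gfap had the lowest log2 fold change, -0.33 (adjusted p = 0.481). It turned to 0.06 (adjusted p = 0.851) without the SP TTX library of preparation 6. Without preparation 8, a fit that held that library, Gfap was called lower by 0.36. Against 1 h Bic, the SP total effect left the 7 genes between 0.17 and 0.36 on the log2 scale, with adjusted p between 0.0990 and 0.637. Sox9, lower, was the 1 member of 9 called, where 3.41% of genes were called lower and 0.891% higher. With preparations paired, Aqp4 (0.27, adjusted p = 0.0223), Aldh1l1 (0.20, adjusted p = 0.0378), Gja1 (0.30, adjusted p = 0.0175) and Fabp7 (0.33, adjusted p = 0.00272) were also called higher, where 11.7% of genes were. With this pairing 5 members were called. Fabp7 was called higher as well without preparation 3, 6 or 8, with values from 0.34 to 0.41.

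In the LP active effect the astrocyte genes rose together. Of the 9 members 8 were higher and 0 lower, where 11.6% of all genes tested were called higher and 11.8% lower. The exception was Gjb6, at 0 to 5 reads per library. The median log2 fold change was 0.84 over the 9 members, against 0.11 over all genes tested and -0.01 over the 13601 genes with a mean of at least 1 CPM.

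Fabp7 (chromosome 10, 57784881 to 57788450) was 265, 299, 235, 328 and 177 CPM in LP TTX and 551, 502, 380, 625 and 350.1 CPM in LP TTX/NMDA in preparations 1, 3, 6, 7 and 8. The lowest library with NMDA was above the highest without it. Its log2 fold change was 0.88 ± 0.13 (SE; adjusted p = 5.74e-06), and the rise within preparations was 1.62-fold to 2.08-fold. S100b (chromosome 10, 76253853 to 76261159) was 6.396, 4.57, 4.39, 6.47 and 3.98 CPM in LP TTX and 12.99, 8.19, 7.72, 10.5 and 8.97 CPM in LP TTX/NMDA, again without overlap, and its log2 fold change of 0.90 ± 0.15 (adjusted p = 2.78e-05) was the largest of the 7. Gja1 (chromosome 10, 56377330 to 56402513) was 31.8, 41.9, 21.3, 50.3 and 25.3 CPM in LP TTX and 69.5, 64.8, 36.7, 84.6 and 52.9 CPM in LP TTX/NMDA. Its groups overlapped, because preparation 6 with NMDA was below preparations 3 and 7 without it, but each preparation rose, by 1.55-fold to 2.19-fold, and the log2 fold change was 0.84 ± 0.17 (adjusted p = 0.000362).

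Gfap was 275, 238, 154, 358 and 157 CPM in LP TTX and 519, 322, 271, 642 and 314 CPM in LP TTX/NMDA, a log2 fold change of 0.80 ± 0.19 (SE; adjusted p = 0.00192). Here too the groups overlapped while 5 of 5 preparations rose. Aqp4 was 44.4, 45.5, 29.8, 72.8 and 32.1 CPM in LP TTX and 92.4, 75.9, 54.3, 116 and 69.3 CPM in LP TTX/NMDA, a log2 fold change of 0.85 ± 0.17 (adjusted p = 0.000334). Aldh1l1 rose from 29.04 ± 7.90 to 52.3 ± 16.5 CPM (SD, n = 5) and Aldoc from 113 ± 39.7 to 192 ± 70.4 CPM, with log2 fold changes of 0.84 ± 0.16 (adjusted p = 0.00015) and 0.76 ± 0.19 (adjusted p = 0.00308). The 7 genes therefore rose by 1.69-fold to 1.87-fold, with SEs between 0.13 and 0.19 on the log2 scale. DESeq2 gave Gfap and Aldoc adjusted p of 0.0543 and 0.0547, which miss the threshold of 0.05, with log2 fold changes of 0.80 and 0.75. Scaling by total counts would add 0.17 to each of these log2 fold changes.

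The LP total effect, TTX/NMDA against uninterrupted Bic for 2 h, gave the same 7 genes higher, with Sox9 and Gjb6 not called, where 11.7% of genes were called higher. The log2 fold changes ranged from 0.67 ± 0.16 for Aldoc (SE; adjusted p = 0.00162) to 1.03 ± 0.14 for Aqp4 (adjusted p = 8.25e-07). S100b rose from 5.49 ± 0.962 to 9.67 ± 2.13 CPM (SD, n = 5) and Fabp7 from 258 ± 50.8 to 482 ± 116 CPM. The groups of these genes did not overlap, while the groups of the other 5 did. How many of all genes separated in this way was not counted. With 1 preparation left out at a time, all 7 remained called in each of the 5 fits of either LP comparison, with log2 fold changes between 0.69 and 0.98 for the active and between 0.55 and 1.10 for the total effect. DESeq2 gave Aldoc an adjusted p of 0.077 for the total effect. Since the LP TTX/NMDA libraries enter both comparisons, the total effect is no independent repeat of the active effect, and total-count scaling would add 0.18 here.

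**Figure D2:**
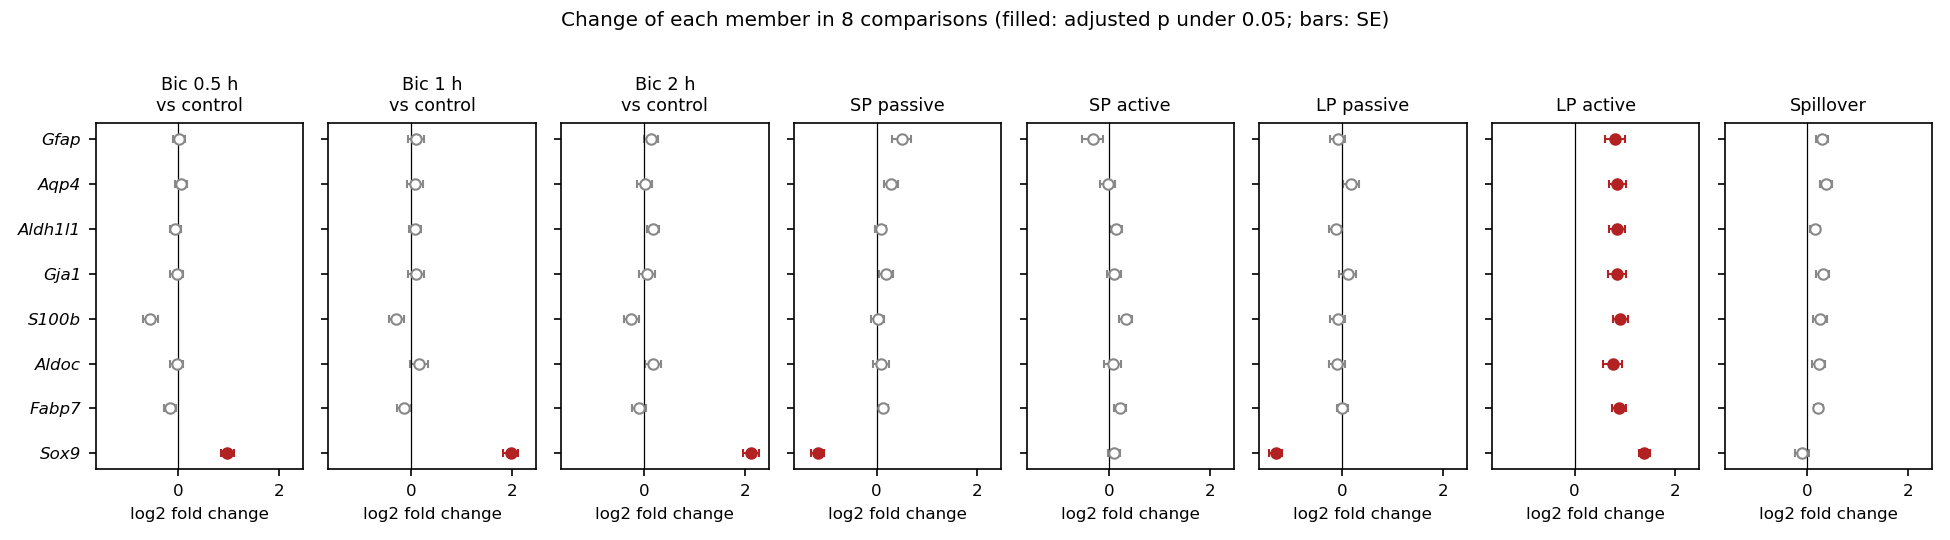
Log2 fold change (x axis) with its SE (bars) of 8 members (y axis) in 8 comparisons, filled red where the adjusted p was under 0.05. The 7 genes other than Sox9 are filled in the LP active panel alone of the 8, at 0.76 to 0.90, and Sox9 is filled in 6 panels.

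The interaction test asked whether the active effect differed between the protocols. For the 7 genes the LP effect was larger than the SP effect by 0.59 to 1.15 on the log2 scale, and 7 of 7 had an unadjusted p under 0.05, but their adjusted p lay between 0.0686 and 0.302, so that Sox9 was the 1 member called. With preparations paired all 7 passed, at 0.61 to 1.16 with adjusted p between 0.00016 and 0.017, where 9.85% of genes were called higher in the LP. The largest value, 1.15 for Gfap, included the SP TTX library of preparation 6, and without that library it was 0.75 (adjusted p = 0.230). Leaving out preparation 7 or 8 also brought 5 or 6 of the 7 genes past the threshold, in fits that kept that library. The number of all genes called varied from 489 to 1128 as each preparation was left out in turn.

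Glutamate spillover called 0 of the 9 members, where 0.0536% of genes were called higher and 0.549% lower. All 7 genes had positive log2 fold changes against 2 h Bic, from 0.16 to 0.37, and 4 of them had an unadjusted p under 0.05. The DESeq2 fit also called 0 members. Aqp4 was 33.1, 42.4, 27.2, 57.7 and 38.2 CPM in 2 h Bic and 48.3, 44.2, 62.7, 55.5 and 45.6 CPM in LP TBOA in preparations 1, 3, 6, 7 and 8, a log2 fold change of 0.37 ± 0.12 (SE; adjusted p = 0.229). Most of this came from preparation 6, the lowest under Bic and the highest under TBOA. Without the LP TBOA library of preparation 6 the 7 log2 fold changes were 0.09 to 0.29, and without preparation 6 in both conditions they were -0.01 for Aldoc, 0.01 for Aldh1l1, 0.06 for Gfap and at most 0.18, for Aqp4. Without preparation 8, in contrast, 5 members (Gfap, Aqp4, Gja1, Aldoc and Fabp7) were called higher, at 0.25 to 0.39. Without preparation 7 Aqp4 and Gja1 were called, and without preparation 3 Aqp4. These fits without preparation 3, 7 or 8 all kept the LP TBOA library of preparation 6, and without that library alone 0 members were called. The number of all genes called also varied, from 123 to 493, as each preparation was left out in turn. Sox9 was 70.9, 79.1, 62.0, 67.2 and 37.9 CPM in LP TBOA, with a log2 fold change of -0.10 ± 0.14 (adjusted p = 0.809).

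The ratio of Sox9 to the 7 other genes differed between the conditions. In the control, Sox9 was 1.81 ± 0.15 log2 units below the mean log2 CPM of the 7 (SD, n = 5). It was 0.74 ± 0.36 below after 0.5 h Bic, 0.17 ± 0.45 above after 1 h and 0.28 ± 0.53 above after 2 h, and it was 1.17 ± 0.21 below in SP TTX, 1.14 ± 0.28 below in SP TTX/NMDA, 0.97 ± 0.35 below in LP TTX, 0.42 ± 0.44 below in LP TTX/NMDA and 0.09 ± 0.41 below in LP TBOA. The mean of the 7 itself moved little between the first 4 of these conditions, from 5.63 to 5.77 log2 CPM, and reached 6.58 ± 0.41 log2 CPM in LP TTX/NMDA.

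**Figure D3:**
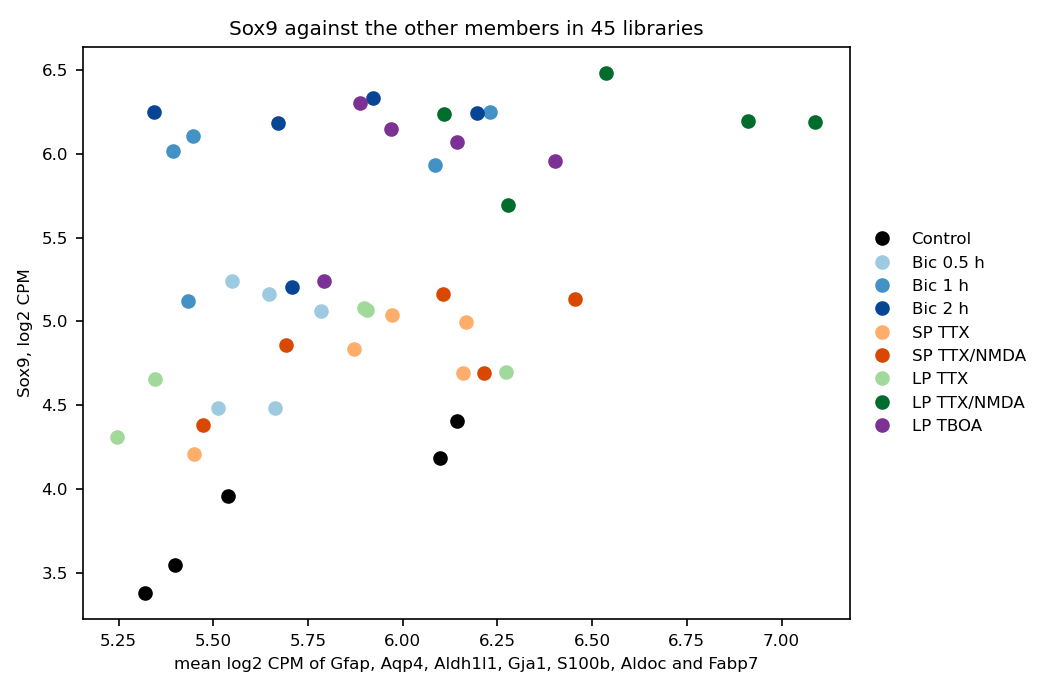
Sox9 log2 CPM (y axis) against the mean log2 CPM of the 7 other well-measured members (x axis), 1 point per library, coloured by condition. Bic moves the points up from the control with little shift to the right, and 3 of the 5 LP TTX/NMDA points lie furthest to the right, while the other 2, of preparations 6 and 8, lie among the points furthest right in other conditions.

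Further genes were read to see what else moved with the members in the LP active effect. Of 24 further astrocyte genes, 18 were higher and 1 lower, with a median log2 fold change of 0.77. Apoe, the main brain apolipoprotein, rose from 653 ± 201 to 1179.8 ± 418 CPM (SD, n = 5; log2 fold change 0.85 ± 0.18, adjusted p = 0.000476). Slc1a3, the glutamate transporter GLAST, and Kcnj10, an inward rectifier potassium channel, each rose by 0.90. The 1 that fell was Slc1a2, the glutamate transporter GLT-1, from 573 ± 54.1 to 450.04 ± 33.9 CPM, by 0.36 on the log2 scale (adjusted p = 0.000426) and in 5 of 5 preparations. It was named after its value was seen. Of 16 genes of reactive astrocytes, 9 were higher and 0 lower with a median of 0.64, among them Timp1 (0.94), the member Gfap and Steap4, which had only 30 reads in the 5 LP TTX and 62 in the 5 LP TTX/NMDA libraries.

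Genes of the other cell types of such a culture moved with them. Of 5 fibroblast genes 5 were higher with a median log2 fold change of 0.88, led by Col1a1 (0.91), Col3a1 (0.88) and Col1a2 (0.88), the fibrillar collagens. Of 9 oligodendrocyte lineage genes 5 were higher and 0 lower with a median of 0.74, among them Olig2 (1.26), Olig1 (0.90) and Pdgfra (0.86). Of 7 progenitor and proliferation genes 6 were higher, such as Pax6 (0.88) and Nes (0.85), and Hes5, a target of Notch signalling, fell by 1.58. Microglial genes were at 9.28 to 13.9 CPM in sum in LP TTX and 13.3 to 18.6 CPM in LP TTX/NMDA, and 4 of 9 were higher with a median of 0.56, among them Ctss (0.66), C1qb (0.58) and P2ry12, which had only 16 reads in the 5 LP TTX and 42 in the 5 LP TTX/NMDA libraries. Of 6 endothelial and mural genes 3 were higher with a median of 0.57, Rgs5 (0.65), Flt1 (0.64) and Pdgfrb (0.63), while the endothelial marker Cldn5 was near 0 in both, at 0.015 and 0.032 CPM.

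The neuronal list moved in the other direction, though not in every gene. With preparations not paired, 10 of 18 were called lower, 0 higher and 8 not called, and 5 of the 18 had positive values. Their median log2 fold change was -0.23, and their summed level was 15313 to 16422 CPM in LP TTX and 12566 to 13499 CPM in LP TTX/NMDA. Total-count scaling, which adds 0.17 to every gene, would bring this median close to 0. Camk2a, a postsynaptic kinase of excitatory neurons, fell by 1.13, Slc17a7, their vesicular glutamate transporter, by 0.83 and Dcx, a gene of young neurons, by 0.66 on the log2 scale. Stmn2, the most abundant of the list, fell from 1969 ± 174 to 1709 ± 110 CPM (SD, n = 5; adjusted p = 0.0271), whereas Tubb3 (0.01), Rbfox3 (0.07) and Gad2 (0.10) did not pass the test. The mitochondrially encoded share of counts was 0.740% to 0.938% in LP TTX and 1.40% to 1.87% in LP TTX/NMDA. The part of cell composition in the rise of the astrocyte genes was not tested.

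**Figure D4:**
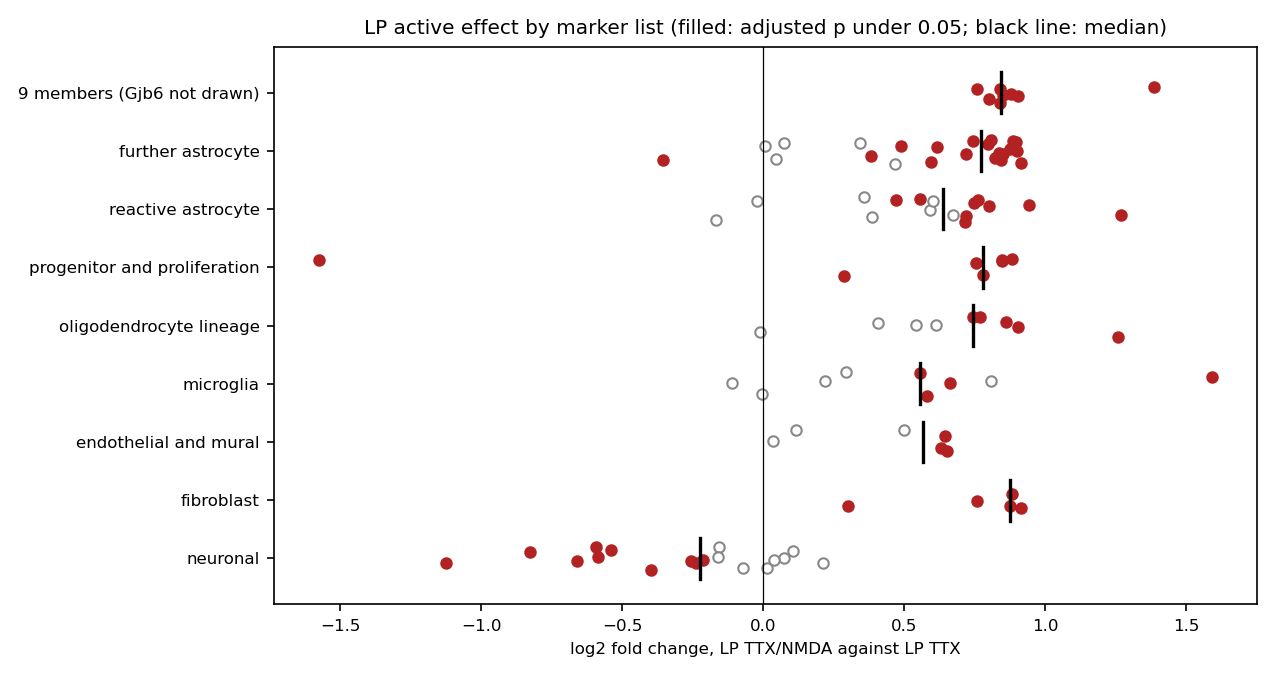
Log2 fold change in the LP active effect (x axis) of each gene in 9 marker lists (y axis), filled red where the adjusted p was under 0.05, with the list median as a black line and Gjb6 left out. The medians of the 8 non-neuronal lists lie between 0.56 and 0.88, and that of the neuronal list at -0.23.

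The summed CPM of the 9 members gave the same picture for the culture as a whole. It was 721 ± 228 in the control, 704 ± 69.03, 778 ± 221 and 805 ± 168 after 0.5, 1 and 2 h Bic, 893 ± 263 in SP TTX, 884 ± 251 in SP TTX/NMDA, 751 ± 216 in LP TTX, 1366 ± 398 in LP TTX/NMDA and 939 ± 168 CPM in LP TBOA (SD, n = 5 each). Without the libraries of preparation 6 that stood apart it was 797 ± 173 in SP TTX and 878 ± 111 CPM in LP TBOA (n = 4 each). The LP TTX/NMDA sum was 1.89-fold the control, and no other condition exceeded 1.30-fold. The range of LP TTX/NMDA, 990.1 to 1911 CPM, lay above that of 0.5 h Bic, 600.1 to 794 CPM, and overlapped with the ranges of the other 7 conditions.

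Differences between preparations were of the size of the treatment effect. Averaged over the 9 conditions on the log scale, Gfap ranged from 204 CPM in preparation 8 to 361 CPM in preparation 7, and Aldoc from 80.8 CPM in preparation 8 to 169 CPM in preparation 7, a 2.09-fold range. Preparation 7 was the highest for all 7 genes, preparation 8 the lowest for 5 of them and preparation 6 for Gja1 and S100b, and S100b had the smallest range, 1.18-fold. Sox9 was highest in preparation 3 (46.6 CPM) and lowest in preparation 8 (26.6 CPM). After subtraction of the condition means, the 21 pairs among the 7 genes had Pearson r between 0.48 and 0.90 over the 45 libraries (median 0.83), and the 7 pairs with Sox9 between 0.09 and 0.63 (median 0.41). Over the 9 condition means the medians were 0.94 and 0.46. The libraries of 1 preparation share their cells, so that these values describe the cultures and carry no test.

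Among 13601 genes with a mean of at least 1 CPM, those among the most like the mean of the 8 measured members across libraries within conditions were Zcchc24 (r = 0.964) and Glul, the glutamine synthetase of astrocytes (0.963). Across the 9 condition means they were Specc1 (0.997), Cbs (0.993), the cystathionine synthase, and Mmp14 (0.993), a membrane metalloproteinase. Of the 20 most alike genes, 5 within conditions and 2 across condition means were on any of the marker lists used here.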

How the data were processed

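Poly-A RNA was sequenced in 45 libraries, 9 conditions of 5 culture preparations. The deposited table holds raw read counts per gene, which the authors made by aligning single-end reads from a directional kit to GRCm38 with STAR 2.5.4b and counting them with featureCounts 1.6.5 over Ensembl release 94 genes; base calls came from bcl2fastq 2.20.0.422. Strand was kept by the kit, and replicates were not pooled. Symbols were matched for 54409 of 54532 identifiers, and gene coordinates are those of GENCODE M21 on GRCm38.

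Each comparison was tested in edgeR 4.0.16 (R 4.3.3) on the counts of its own libraries, with all genes of at least 1 read, TMM scaling, the quasi-likelihood F test and Benjamini-Hochberg adjustment over all genes tested, and genes with an adjusted p under 0.05 were called. This follows the design of the study, which states no covariate. CPM used TMM scaling. Where groups are said not to overlap, the share of all genes that separated in this way was not counted. Such separation cannot be read as particular to the members. The labels number the culture preparations, and same-numbered libraries deviated together (mean r from 0.368 to 0.562 over 10 comparisons), so a paired fit with preparation as a block was run over genes kept by filterByExpr. Further alternatives were filterByExpr alone, RLE size factors, DESeq2 1.42.0, 1 fit over all 45 libraries and leaving out each preparation; 2 libraries were also left out singly, a choice made after seeing the data. The fits were also run on simulated counts. These were drawn without differences between preparations, so that they cannot compare the paired with the unpaired fit.

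The p-values of the unpaired fits measure the spread between culture preparations. Those of the paired fit measure the spread of the change within preparations. Counting limits cover counting error only. The members and the marker lists were chosen with earlier results of these data known. All 9 members are described; from each other list the most abundant gene and the 3 called genes with the largest change in the LP active effect are named, and for likeness the 3 genes with the highest correlation. An item that this rule would name is not reported here. Genes outside this rule were chosen after their values were seen: Slc1a2, Cldn5, Tubb3, Rbfox3, Gad2 and the genes of the SP TTX library of preparation 6. Promoter sequences are from RefSeq (GRCm38.p6).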

Additional observations from a re-analysis of the deposited data

Results flagged for a closer look

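Gfap in SP TTX was 664.888 CPM in preparation 6, while the other 4 libraries lay between 185 and 314 CPM. The gap to the nearest library was 0.73 of the range of the group, above the critical value of 0.71 for 5 samples. Sox9 after 2 h Bic was 36.9009 CPM in preparation 8, while the other 4 libraries lay between 72.6 and 80.8 CPM, a gap of 0.814 of the range. These were 2 of 72 groups tested in this way, and chance gives about 1 in 20. The active effect of NMDA on Sox9 differed between the protocols by 1.30694 on the log2 scale (edgeR interaction test, adjusted p = 3.76e-05), with every preparation higher under NMDA in the LP and 4 of 5 in the SP.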

How the results depend on the processing

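For the members, 867 of 912 values under another setting kept their direction and side of the threshold, 42 newly passed it, 3 no longer did and 0 called values reversed; 31 uncalled values changed sign. In both LP comparisons of TTX/NMDA the count of members called, 8 and 7, stayed within 1.5 times under all settings. Elsewhere the cause of a change was not tested. The paired fit covered only genes kept by filterByExpr, so that its counts come from fewer genes. After 2 h Bic it tested 15269 genes, where the unpaired fit tested 30929. With the replicate block (paired preparations), the genes called were 618 after 1 h Bic (357 unpaired), 4479 after 2 h Bic (2789), 2548 in the SP active (1379), 4217 in the SP total (1351), 4978 in the LP passive effect (1485), 417 for spillover (191) and 4165 for the LP minus SP difference (900), and the members called were 3 after 2 h Bic, 5 in the SP total effect and 8 for the difference, each in place of 1; it changed no other call of a member. The SP passive effect (85 genes) gave 35 with filterByExpr and 54 in 1 fit over all 45 libraries, spillover gave 104, 106 and, with DESeq2, 315, and DESeq2 gave 2320 in the LP passive effect and 1660 for the difference. Leaving out 1 preparation at a time gave 1 to 2 members called after 0.5 h Bic, 52 to 163 genes and 1 to 3 members in the SP passive, 918 to 1828 genes and 0 to 1 members in the SP active, 801 to 2068 genes and 1 to 2 members in the SP total and 909 to 1647 genes in the LP passive effect, 123 to 493 genes and 0 to 5 members for spillover, and 489 to 1128 genes and 1 to 7 members for the difference. Gjb6, with at most 9 reads per library, was too shallow for any comparison.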
